A study of Mus musculus with 6 samples.

Results

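Thick ascending limb (TAL) spots are the capture spots of mouse kidney sections with the highest summed signal of Slc12a1, Umod and Egf, 3 genes that mark the TAL of the nephron. In each library, spots with at least 1000 unique molecular identifiers (UMIs) were scored by the mean of the log-transformed levels of these 3 genes, and the spots at or above the 92nd percentile in their own library were kept, so the members were chosen by measured levels of these genes. This gave 1497 TAL spots among 18684 scored spots and 19095 spots in all. The 6 libraries held 327 (WT), 255 (2m AS), 160 (5m AS), 272 (early treated 5m AS), 227 (late treated 5m AS) and 256 (mixed) TAL spots. Because the rule takes a fixed share of each library, the number of TAL spots carries no information on how much TAL a section held.

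The study profiled kidney by 10x Genomics Visium, in which RNA from a frozen section is captured on a slide of barcoded spots, in a mouse model of Alport syndrome (AS), in which the type IV collagen network of basement membranes is defective. WT was a B6C57 mouse whose age the labels leave out. The AS libraries came from B6.Cg-Col4a5tm1Yseg mice labelled 2m and 5m (2 and 5 months by the titles), and the early and late treated libraries from 5m mice of the same allele that received hEV treatment, whose dose, dates and early or late schedule the sources used here do not give. In the labels, the mixed library carried a WT female and a heterozygous female together, the only library whose sex is labelled, so sex and library cannot be told apart. The allele is present in all AS, treated and, in part, mixed samples. Each group was 1 library with no replicate, so the values below compare libraries, no test between groups was possible, and intervals cover counting error only.

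The TAL reabsorbs salt without water through the apical cotransporter NKCC2, encoded by Slc12a1, with potassium recycling through Kcnj1. The lumen-positive voltage this produces drives calcium and magnesium between the cells through claudin pores. The segment secretes uromodulin, encoded by Umod and the most abundant protein of normal urine, and is the main renal source of the epidermal growth factor precursor, encoded by Egf. A capture spot is a small region that can hold several cells of different types, so TAL spots also contain RNA of neighbouring cells, and fewer cells of a type and less RNA per cell cannot be told apart.

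The values that chose the spots are given here as a description. The score at the 92nd percentile ranged from 2.76 (early treated) to 3.46 (mixed), and the median score from 2.99 to 3.69 in TAL spots and from 1.09 to 2.00 in the other spots. Spots on either side of the threshold had close values: in 5m AS the 10 spots just inside averaged 10664 Umod and 539 Egf CPM (UMIs normalised to the spot's total), and the 10 just outside 11582 and 456. In WT the same 10 inside averaged 4289 Umod and 1451 Egf CPM, and the 10 outside 4388 and 1289. The 3 genes made up 0.826% of the UMIs of TAL spots in WT and between 1.34% and 1.94% in the other libraries, and TAL spots held between 22.5% (WT) and 41.9% (early treated) of all UMIs of these genes, so the larger share of these transcripts lay outside the selected spots in every section.

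Depth and makeup differed between libraries. TAL spots summed to between 4156119 (early treated) and 7234317 (2m AS) UMIs, with median depths between 15404 and 28768 UMIs per spot. Mitochondrially encoded genes held between 6.38% (early treated) and 11.3% (WT) of their UMIs. The WT and 5m AS counts were made with Space Ranger 1.2.1 and the other 4 with 1.3.1, so group and version cannot be told apart in comparisons that cross them. Of the 4922 distinct spot barcodes, 4708 occurred in at least 2 libraries; slides of this kind carry 1 common set of barcodes. Spots scored by the same rule with distal convoluted tubule (DCT) genes made up 17.3% of the early treated TAL spots and between 3.52% and 8.63% in the other 5 libraries. Spots scored with late proximal tubule genes made up 28.4% of the WT TAL spots and 3.75% of those of 5m AS, with the other 4 libraries between 10.2% and 20.3%. The part of these overlaps in the results below was not tested except where a value without those spots is given. Col4a5, the gene of the mutant allele, had between 4.34 (5m AS) and 13.0 (mixed) scaled CPM, and its 3' counts do not check the allele.

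Many of the TAL genes that had no part in the score were also higher in the selected spots, but not as a sum for every list. Levels are given as CPM of UMIs summed over spots and scaled by trimmed-mean (TMM) factors, called scaled CPM, and are compared across libraries, not across genes. Of 36 TAL genes on 4 lists beyond the 3 used for the score, 34 reached 5 scaled CPM in TAL spots of every library. Of these, 25 were higher in TAL spots than in the other spots of the same section in all 6 libraries, and 9 at least 2-fold so in all 6 (Cldn16, Cldn19, Casr, Tmem207, Wfdc15b, Ptger3, Irx1, Irx2 and Foxq1). Fxyd2, the gamma subunit of the sodium pump, was lower in TAL spots in all 6 libraries, between 0.852-fold and 0.981-fold. Over all 9277 genes that reached this level in every library, score genes left out, 1131 (12.2%) were higher in TAL spots in all 6 libraries, 26 (0.280%) at least 2-fold so and 911 (9.82%) lower. The 11 salt transport genes without Slc12a1 summed to 0.992-fold (WT), 0.996-fold (2m AS) and 0.976-fold (mixed) of the other spots. In 5m AS and the treated libraries they summed to 1.14-fold to 1.31-fold. In WT, 8 of the 11 were higher in TAL spots, with a median log2 contrast of 0.14. Late proximal tubule genes summed to between 1.19-fold (early treated) and 1.43-fold (WT), with a median of 0.58 in WT. All spots entered the choice of members, so these contrasts are descriptions and nothing is read from the counts. In the GENCODE M21 annotation of mm10 (GRCm38), these are protein-coding genes, and those that the results turn on lie at chr2:125152505-125230002 (Slc12a1, plus strand), chr7:119462711-119479282 (Umod, minus), chr3:129677565-129755316 (Egf, minus), chr16:26463135-26482765 (Cldn16, plus), chr5:134986214-134987472 (Cldn3, plus), chr13:71957921-71963723 (Irx1, minus) and chr5:150952607-150993817 (Kl, plus).

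Claudins of the tight junction and transcription factors were among the genes with the largest contrasts. Cldn16, the pore-forming claudin of magnesium reabsorption, was 3.76-fold (WT), 5.54-fold (2m AS), 3.04-fold (5m AS), 7.87-fold (early treated), 7.05-fold (late treated) and 4.61-fold (mixed) higher in TAL spots than elsewhere. Tmem207 stood at 5.24-fold to 7.01-fold in 5 libraries and 15.7-fold in the early treated library. Irx1, a homeobox transcription factor, ranged from 2.16-fold in 5m AS to 7.73-fold in the late treated library. For these 3 genes the contrast was largest in a treated library and smallest in 5m AS, although for Tmem207 5m AS (5.24-fold) and WT (5.25-fold) were nearly equal. Outside the lists, the genes with the largest mean contrast were Eprn (2.75-fold to 6.62-fold), Ppp1r1b, the phosphatase inhibitor DARPP-32 (3.40-fold to 9.50-fold), and Dusp9, a MAP kinase phosphatase (3.06-fold to 9.77-fold). Erbb4, a receptor for EGF family ligands, was 2.72-fold to 6.16-fold higher.

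Kcnj1, of the salt transport list, showed a shallower contrast than Cldn16, and it differed by library. It was 1.13-fold higher in TAL spots in WT, 1.31-fold in the mixed and 1.48-fold in the late treated library, and 2.02-fold to 2.11-fold in 2m AS, 5m AS and the early treated library. Among the 5 genes with the lowest mean contrast were S100g, the calcium-binding protein calbindin-D9k of the distal nephron, at 0.320-fold to 0.506-fold, and Calb1, calbindin-D28k of the DCT, at 0.327-fold to 0.655-fold. Both were picked out after their values were seen.

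**Figure D1:**
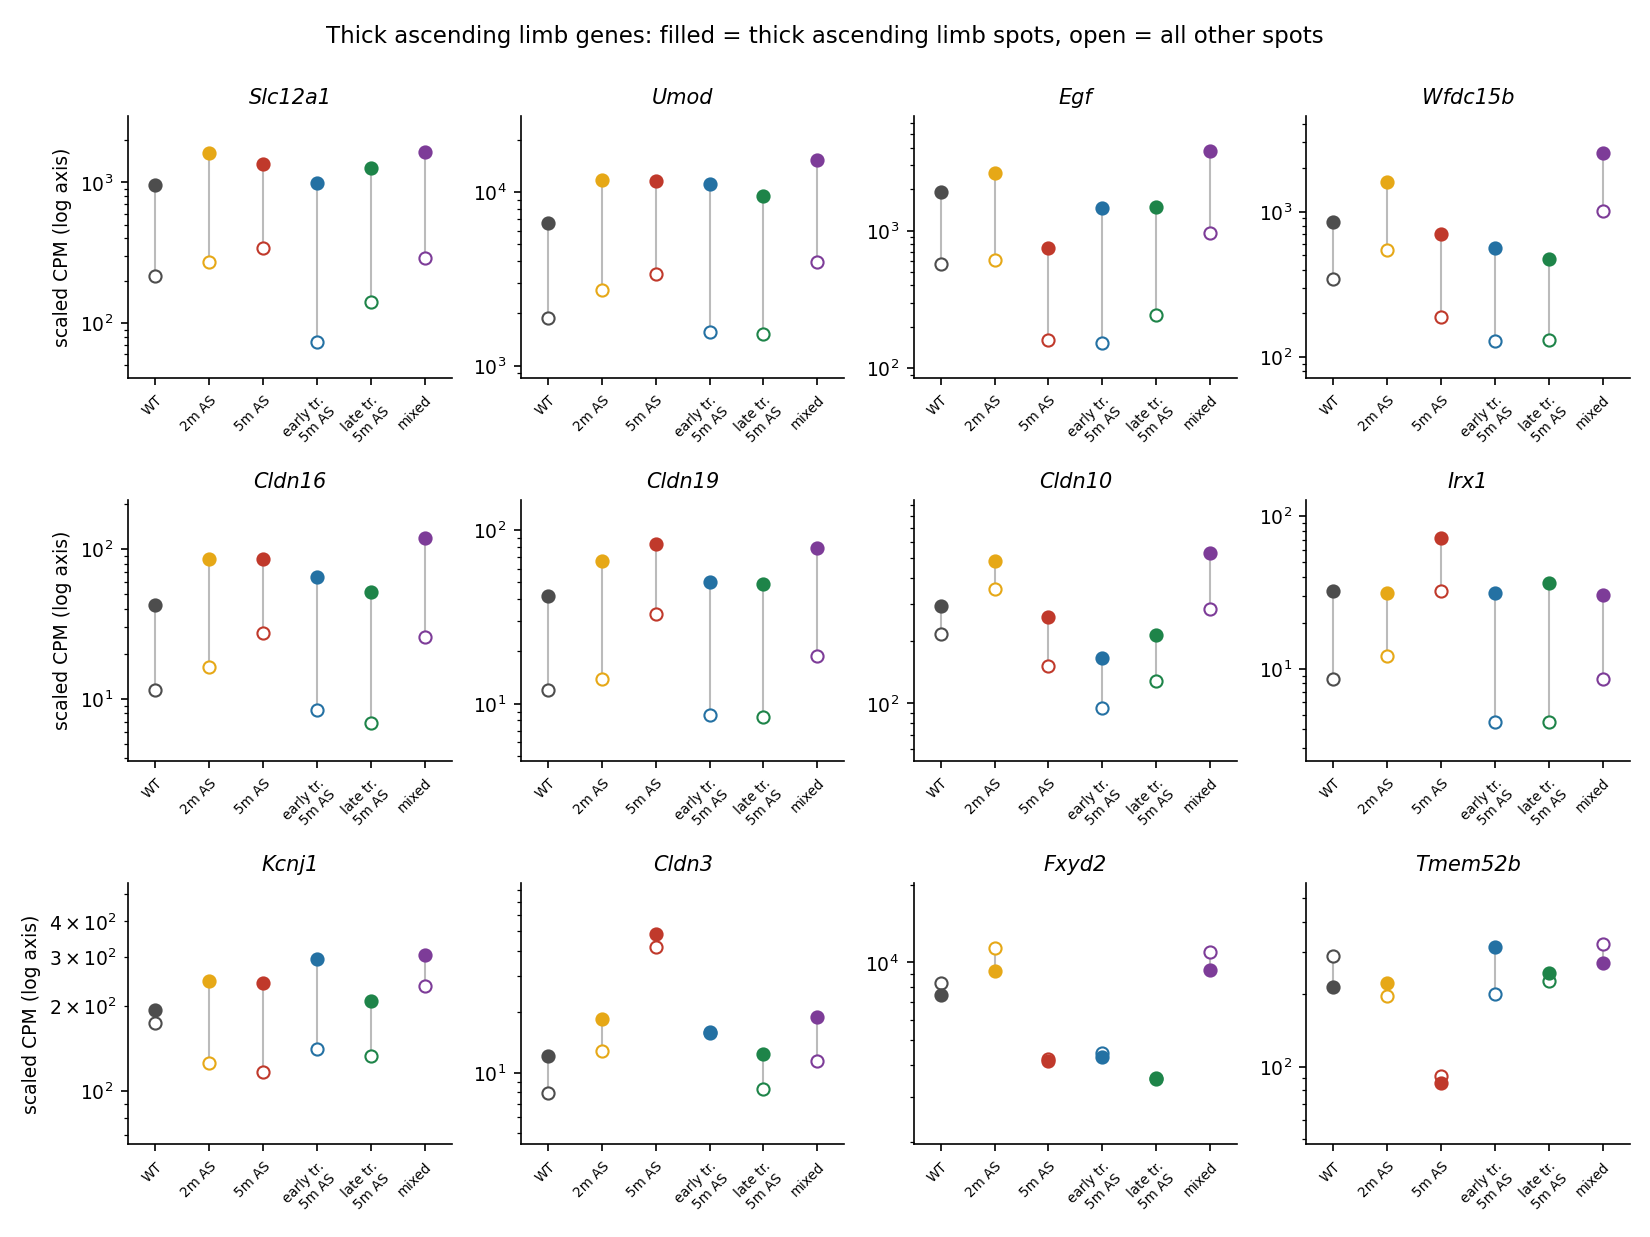
Scaled CPM (log axis) of 12 TAL genes in each of the 6 libraries, 1 panel per gene, with filled points for UMIs summed over TAL spots and open points for the other spots of the same library. Egf is lowest in 5m AS in TAL spots (753), Umod there (11649.6) lies between WT (6614) and the mixed library (15248), and the open points of Slc12a1, Cldn16 and Irx1 are low in both treated libraries.

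Between libraries, a gene was counted as higher or lower in TAL spots when it differed at least 2-fold and reached 20 scaled CPM in 1 of the 2 libraries. In 2m AS against WT, 90 of 6675 genes (1.35%) were higher and 93 (1.39%) lower. In 5m AS against WT, 281 of 6849 (4.10%) were higher and 298 (4.35%) lower, and in 5m AS against 2m AS, 310 of 6853 (4.52%) were higher and 361 (5.27%) lower. Against untreated 5m AS, 112 of 6762 genes (1.66%) were higher and 129 (1.91%) lower in the early treated library, and 214 of 6833 (3.13%) were higher and 231 (3.38%) lower in the late treated library. These shares are the background for the counts below. The 5m AS library enters 4 of the 5 comparisons and WT enters 2, so the comparisons are not independent of one another.

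The scaling matters for 5m AS. Without TMM factors, the calls of 5m AS against WT split into 506 higher and 125 lower (80.2% higher, against 48.5% with TMM), and the median log2 ratio of all tested genes moved from -0.16 to 0.21. For 5m AS against 2m AS the split became 794 and 92 (89.6% higher, against 46.2%), and the median went from -0.13 to 0.31. The share of higher calls also moved from 49.2% to 37.2% for 2m AS against WT and from 46.5% to 60.9% for the early treated library. Of the genes called lower with TMM, 125 of 298 (5m AS against WT) and 92 of 361 (5m AS against 2m AS) were still called without it, so differences of about the size of these shifts depend on the scaling.

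The salt transport list includes Slc12a1, a score gene, whose level describes the spots chosen. It stood at 959.6 (WT), 1622 (2m AS), 1361 (5m AS), 987 (early treated), 1271 (late treated) and 1641 (mixed) scaled CPM in TAL spots. Of the 12 genes of the list, none was called in 2m AS or 5m AS against WT, none in the late treated library against 5m AS, 1 was lower in 5m AS than in 2m AS (Fxyd2) and 1 higher in the early treated library (Kcnj10). The list's median log2 ratio was -0.37 for 5m AS against WT (-0.02 without TMM factors), beside -0.16 for all tested genes. In the other comparisons the list's median lay between -0.11 and 0.18, and its sign turned with the scaling or the size factors in 2m AS against WT, 5m AS against 2m AS and the late treated comparison. The early treated median of 0.18 was -0.01 with the score from Slc12a1 alone. Without Slc12a1 the medians were -0.15 (2m AS against WT), -0.38 (5m AS against WT), -0.04 (5m AS against 2m AS), 0.28 (early treated) and 0.02 (late treated).

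Kcnj1, the apical potassium channel ROMK, had 194 (WT), 245 (2m AS), 241 (5m AS), 293 (early treated), 209 (late treated) and 305 (mixed) scaled CPM. WT was lowest, and with TMM factors no ratio reached 1.3 in the comparisons. The factors were 0.871 for WT and 1.105 for 5m AS, so the ratio of 5m AS to WT was larger without them. Fxyd2 had 7446, 9251, 4149, 4287, 3533 and 9314 in the same order, so the 3 libraries of 5m mice were all below the other 3. In 5m AS it was 0.449 times its 2m AS level (95% interval 0.441 to 0.456), a difference that missed 2-fold without TMM factors (log2 ratio -0.75 in place of -1.16) and that was as large in the other spots (0.372 times). Kcnj10, a basolateral potassium channel of the distal nephron, was 2.21-fold higher in the early treated library than in 5m AS (1.81 to 2.69), at 68.4 against 30.99. Without the spots that also scored as DCT, its log2 ratio was 0.34 in place of 1.14.

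The calcium and magnesium list holds claudins and the genes that act with them. Of the calcium and magnesium list, 2 of 6 tested genes were higher in 5m AS than in WT (Cldn16 and Cldn3) and none lower, with a median log2 ratio of 0.60 beside -0.16 for all tested genes. In 2m AS against WT, 1 of 5 was higher (Cldn16; median 0.66), and in 5m AS against 2m AS, 1 of 5 (Cldn3; median 0.33). In both treated libraries, 1 of 6 was lower than in 5m AS (Cldn3), with medians of -0.53 (early) and -0.51 (late). All of these medians kept their sign under every scaling used.

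Cldn3, a sealing claudin, had 12.0 (WT), 18.4 (2m AS), 48.3 (5m AS), 15.7 (early treated), 12.3 (late treated) and 18.8 (mixed) scaled CPM. The 5m AS library stood apart, with the other 5 between 12.0 and 18.8. It was 4.02-fold above WT (3.02 to 5.40) and 2.63-fold above 2m AS (2.09 to 3.33), and the treated libraries were at 0.325 (0.248 to 0.422) and 0.255 times (0.193 to 0.334) its level. The other spots gave 5.29, 3.28, 0.379 and 0.198 for the same ratios, so the difference was not restricted to TAL spots, and its calls held under all settings tried.

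Cldn16 had 42.3 (WT), 86.0 (2m AS), 86.0 (5m AS), 64.7 (early treated), 51.6 (late treated) and 119 (mixed) scaled CPM. WT was lowest, and both untreated AS libraries were 2.03-fold above it (1.73 to 2.39 for 2m AS, 1.72 to 2.40 for 5m AS). These ratios lie close to the 2-fold line. With 1 score threshold for all libraries they were 0.68 and 0.83 on the log2 scale in place of 1.02, and without TMM factors the 2m AS ratio was 0.96, short of the count. In the treated libraries the TAL spots held 0.753 and 0.600 times the 5m AS level, while the other spots held 0.303 and 0.250 times. Cldn19, the partner of Cldn16, had 41.9, 66.3, 83.5, 50.01, 49.1 and 79.2, with 5m AS 1.99-fold above WT (1.68 to 2.36), just short of the count, which it passed without TMM factors (log2 ratio 1.34) and under 8 other settings. Cldn10, the sodium-selective pore of the TAL, ran differently: 293, 483, 259, 165, 212 and 532, with the 3 libraries of 5m mice lowest on this scale. The place of 5m AS below WT depends on the scaling. Per spot and without TMM factors, the median Cldn10 level was 245 CPM in WT and 274 in 5m AS. Cldn14, a blocking claudin that the calcium-sensing receptor induces, was at or under the level of 3 counts in 5 libraries and at 27.7 scaled CPM in the mixed library.

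Of the 8 genes of the list of secreted and surface proteins, 2 were lower in 5m AS than in WT (Egf and Tmem52b) and none higher, and 3 were lower than in 2m AS (Egf, Wfdc15b and Tmem52b), with median log2 ratios of -0.43 and -0.88. In 2m AS against WT, 1 was higher (Ptger3; median 0.62). In the treated libraries against 5m AS, 2 were higher in the early treated (Tmem52b and Defb1) and 1 in the late treated library (Tmem52b), both with a median of 0.52. Egf and Umod are score genes, so their levels describe the spots chosen, and both enter these counts and medians. Apart from Egf, the genes called lower in 5m AS were Tmem52b against WT, and Wfdc15b and Tmem52b against 2m AS.

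Egf stood at 1914 (WT), 2635 (2m AS), 753 (5m AS), 1452 (early treated), 1491 (late treated) and 3759 (mixed) scaled CPM. The 5m AS level was under every other library, at 0.393 times WT (0.379 to 0.409) and 0.286 times 2m AS (0.276 to 0.296). Both calls held under each alternative tried, but Egf took part in choosing the spots in all of them except the score from Slc12a1 alone. With that score, Egf stood at 609 (5m AS), 1694 (WT) and 2501 (2m AS) scaled CPM. The early treated library was 1.93-fold above 5m AS (1.85 to 2.01) and the late treated 1.98-fold (1.90 to 2.06), both just under the 2-fold count. With the score taken from Slc12a1 alone, so that Egf had no part in the choice, these log2 ratios were 1.13 and 1.24 in place of 0.95 and 0.99 and passed 2-fold. In the other spots, Egf in 5m AS was at 0.282 times WT, and the early and late treated libraries were at 0.956 and 1.52 times 5m AS.

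Umod went another way. Its levels were 6614 (WT), 11737 (2m AS), 11649.6 (5m AS), 11185 (early treated), 9546 (late treated) and 15248 (mixed) scaled CPM. WT was lowest, with 5m AS 1.76-fold above it (log2 ratio 0.82, or 1.16 without TMM factors), and 5m AS was at 0.993 times 2m AS. The treated libraries held 0.960 and 0.819 times the 5m AS level in TAL spots but 0.461 and 0.453 times in the other spots. Slc12a1 behaved alike, at 0.725 (early) and 0.934 times (late) in TAL spots and 0.216 and 0.416 times in the other spots. Per spot, the median Umod level was 5666 CPM in WT, 12839 in 5m AS and 13920 in the mixed library, with single TAL spots from 2308 to 42361 CPM over the 6 libraries.

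The ratio of the 2 secreted products needs no scaling factor. Both are score genes, so the ratio in TAL spots describes the spots chosen, and 1 section per group gives it no spread between animals. TAL spots held 28.9 Egf UMIs per 100 Umod UMIs in WT (95% interval 28.3 to 29.6, from 9858 Egf and 34059 Umod UMIs) and 6.46 in 5m AS (6.25 to 6.68, from 3644 and 56382 UMIs). The ratio was 22.5 for 2m AS (22.1 to 22.8), 13.0 for the early treated (12.7 to 13.3), 15.6 for the late treated (15.3 to 16.0) and 24.7 for the mixed library (24.3 to 25.01). The order from the top was WT, mixed, 2m AS, late treated, early treated and 5m AS. Over single spots, the middle 50% lay between 21.7 and 36.6 in WT and between 4.26 and 9.34 in 5m AS. A ratio under 10 was found in 76.9% of TAL spots of 5m AS, 32.0% of the early treated and 11.9% of the late treated library, as against 0.306% (WT), 0.784% (2m AS) and 1.17% (mixed). The other spots gave 30.4 (WT), 22.4 (2m AS), 4.75 (5m AS), 9.85 (early treated), 16.0 (late treated) and 24.4 (mixed), the same order of levels. With spots scored by Slc12a1 alone the ratio was 28.1 in WT, 5.21 in 5m AS, 12.7 in the early treated and 15.2 in the late treated library.

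**Figure D2:**
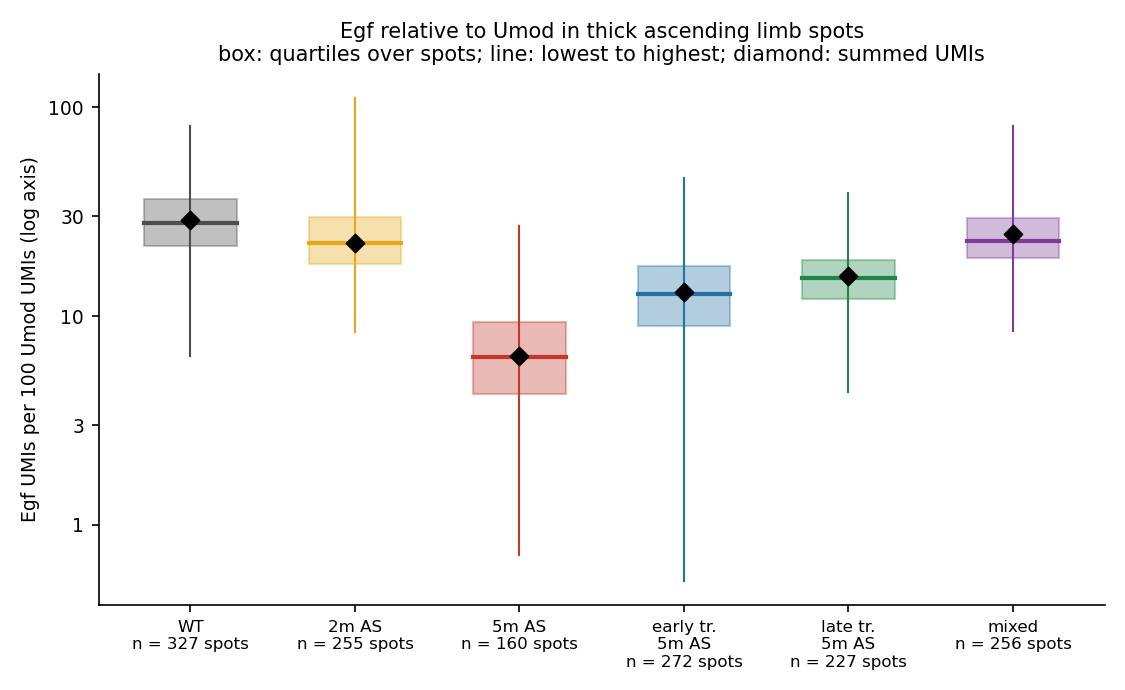
Egf UMIs per 100 Umod UMIs in TAL spots of each library, where the box spans the quartiles over spots with at least 10 Umod UMIs, the line runs from the lowest to the highest spot and the diamond is the ratio of the summed UMIs. The 5m AS box (4.26 to 9.34) lies under the WT box (21.7 to 36.6), and both treated libraries (diamonds at 13.0 and 15.6) lie between them.

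Wfdc15b, a whey acidic protein family member enriched in TAL spots, had 843 (WT), 1589.7 (2m AS), 702 (5m AS), 564 (early treated), 472 (late treated) and 2506 (mixed) scaled CPM. The 3 libraries of 5m mice were lowest on this scale. Per spot and without TMM factors, however, the median Wfdc15b level was 704 CPM in WT and 736 in 5m AS. The scaled level of 5m AS was at 0.442 times 2m AS (0.425 to 0.459). That call was lost without TMM factors (log2 ratio -0.78 in place of -1.18). Tmem52b had 214, 222, 85.5, 314, 244 and 270.1 in the same order, with 5m AS alone under 200, at 0.399 times WT (0.356 to 0.447). The treated libraries were 3.67-fold (3.29 to 4.10) and 2.86-fold (2.56 to 3.20) above 5m AS. Without TMM factors its log2 ratio was -0.98 against WT and -0.97 against 2m AS, just short of the count.

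Defb1, an antimicrobial beta-defensin of the distal nephron, had 416, 501, 274, 686, 388 and 577 scaled CPM, with the early treated library 2.50-fold above 5m AS (2.349 to 2.67). Without the spots that also scored as DCT the log2 ratio was 0.41 in place of 1.32. Ptger3, the prostaglandin E2 receptor EP3, had 23.5 in WT and between 38.0 and 68.4 in the other 5 libraries, and was 2.07-fold higher in 2m AS than in WT (1.67 to 2.58). This call was lost under 4 settings, among them 1 score threshold for all libraries (log2 ratio 0.65) and no TMM factors (0.99).

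Among transcription factors and identity genes, 1 gene was called in each of 4 comparisons: Irx1 was higher in 5m AS than in WT (1 of 7 tested) and than in 2m AS (1 of 8), Irx1 was lower in the early treated library than in 5m AS (1 of 8) and Irx2 lower in the late treated one (1 of 7). No gene was called in 2m AS against WT (0 of 8). Irx1 had 32.2 (WT), 31.4 (2m AS), 71.5 (5m AS), 31.3 (early treated), 36.6 (late treated) and 30.5 (mixed) scaled CPM. The 5m AS library stood alone above a group of 5 between 30.5 and 36.6. It was 2.22-fold above WT (1.84 to 2.69) and 2.27-fold above 2m AS (1.90 to 2.73), and the early treated library was at 0.437 times (0.359 to 0.530) and the late treated at 0.513 times its level. Weighting each spot equally, the log2 ratios were 0.94 against WT and -0.99 for the early treated library, both just short of 2-fold.

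In the other spots, which also hold TAL RNA, Irx1 differed more. The other spots had 8.58 (WT), 12.1 (2m AS), 32.2 (5m AS), 4.46 (early treated), 4.48 (late treated) and 8.56 (mixed) scaled CPM, so the treated libraries were at 0.138 and 0.139 times 5m AS there. The 3 score genes made up 0.440% (5m AS), 0.209% (early treated) and 0.225% (late treated) of the UMIs of the other spots. The part of this difference in the ratios of TAL genes in the other spots was not tested. Irx2 had 21.4, 38.0, 41.9, 22.6, 19.5 and 46.3 in TAL spots, with the late treated library at 0.464 times 5m AS (0.365 to 0.587), and 0.157 times in the other spots. At the 97th percentile of the score the Irx2 call was lost (log2 ratio -0.80). Tfap2b ran from 25.4 (WT) to 39.3 (5m AS) and Esrrg, an oestrogen-related receptor of energy metabolism, from 21.6 (mixed) to 38.0 (late treated). Foxq1 was at 58.8 in the mixed library and between 9.90 and 22.5 in the other 5.

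The list named NKCC2 regulators held klotho (Kl), the co-receptor of FGF23, which is known mainly from the distal convoluted tubule. It also held Klhl3, which is on the DCT list as well. Its 11 genes were not particular to TAL spots, with sums between 0.950-fold (WT) and 1.18-fold (early treated) of the other spots. Of these 11 genes, 2 were lower in 5m AS than in WT (Kl and Klhl3) and 1 lower than in 2m AS (Kl; log2 ratio -1.22, or -0.82 without TMM factors), none higher. In the early treated library 3 were higher than in 5m AS (Kl, Klhl3 and Wnk1) and in the late treated library 2 (Kl and Klhl3), none lower. The medians were -0.29 for 5m AS against WT (0.05 without TMM factors), 0.53 for the early treated and 0.30 for the late treated library.

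Kl had 428 (WT), 337 (2m AS), 145 (5m AS), 315 (early treated), 411 (late treated) and 333 (mixed) scaled CPM in TAL spots. It was lowest in 5m AS, at 0.338 times WT (0.310 to 0.368), and 2.18-fold (1.99 to 2.38) and 2.84-fold higher (2.61 to 3.10) in the treated libraries. The ratios in the other spots were close, at 0.331, 2.00 and 2.54. Klhl3, a ubiquitin ligase adaptor for WNK kinases, had 41.6, 29.8, 16.1, 55.3, 44.8 and 40.02, and was at 0.388 times WT in 5m AS (0.295 to 0.505) and 3.43-fold above 5m AS in the early treated library (2.66 to 4.47). Wnk1 had 101 in 5m AS and 295 in the early treated library (2.94-fold; 2.65 to 3.26). Without the spots that also scored as DCT, the log2 ratios of the early treated library were 1.17 for Klhl3 in place of 1.78 and 0.86 for Wnk1 in place of 1.55, which ended the Wnk1 call.

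Of the 6 genes of the EGF family tested, only Egf, a score gene, was lower in 5m AS than in WT or in 2m AS. Erbb4 had 15.3 (WT), 22.2, 25.2, 23.0, 23.3 and 31.5 (mixed) scaled CPM. Erbb3, another receptor of the family, had 30.5, 39.5, 19.8, 23.6, 44.5 and 25.2. In 5m AS it was at 0.502 times 2m AS (0.392 to 0.638), just short of the count, and it was 2.24-fold higher in the late treated library than in 5m AS (1.77 to 2.86), with 2.36-fold in the other spots. Weighting each spot equally, its log2 ratio was 0.9995, at the edge of the count.

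Tubular injury genes were higher in TAL spots of 5m AS. Of 18 injury genes tested, 10 were higher than in WT and none lower (median log2 ratio 1.28), and 12 were higher than in 2m AS (median 1.29). In 2m AS against WT, 2 of 12 were higher (Spp1 and Cryab; median -0.30), of which Cryab was lost at the 97th percentile (log2 ratio 0.95 in place of 1.14). In the early treated library against 5m AS, 2 of 18 were lower (Havcr1 and Cryab; median -0.24), and in the late treated library 7 of 18 were lower (median -0.83). None was higher in either.

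Lcn2, the iron-sequestering protein NGAL that injured tubules release, had 0.194 (WT, 1 UMI), 6.12 (2m AS), 140.1 (5m AS), 80.9 (early treated), 17.0 (late treated) and 2.31 (mixed) scaled CPM in TAL spots. The 5m AS level was 22.9-fold above 2m AS (16.4 to 32.8) and, with 1 UMI in WT, 721-fold above WT with an interval from 129 to 28537 (log2 ratio 9.49, and 8.04 with the score taken after thinning to 1000 UMIs). The late treated library was at 0.121 times 5m AS (0.0973 to 0.150; log2 ratio -3.04, and -3.73 at the 97th percentile), and the early treated at 0.577 times (0.509 to 0.654), which is not counted as lower. After each spot was thinned to 5000 UMIs, 51.3% of 5m AS TAL spots held an Lcn2 UMI (81 of 158; exact binomial interval 43.2% to 59.3%), as against 41.9% of the other spots, and 29.1% of early treated (75 of 258), 8.14% of late treated and 0.31% of WT TAL spots. Without thinning, 144 of the 160 TAL spots of 5m AS held 1, so the signal was spread over most of them.

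Havcr1, the kidney injury molecule KIM-1 known from injured proximal tubule, was high in the same libraries, at 0.194 (WT, 1 UMI), 8.27, 106, 43.2, 10.9 and 1.15 scaled CPM. It differed from Lcn2 in its summed level relative to the other spots. In 5m AS it was at 0.663 times the level of the other spots and in the early treated library at 0.443 times, while Lcn2 was at 1.07 and 1.39 times. The shares of spots with a Havcr1 UMI after thinning to 5000 UMIs lay closer in 5m AS, at 41.8% of TAL and 44.4% of other spots. In the early treated library they were 17.4% and 26.7%. The treated libraries were at 0.406 (0.344 to 0.477) and 0.103 times (0.0779 to 0.134) the 5m AS level, the latter a log2 ratio of -3.28, or -2.60 at the 85th percentile. Spp1, osteopontin, had 547 in WT, 1378, 5619, 4351, 2168 and 2029, a level that was 10.3-fold above WT in 5m AS (9.88 to 10.7), at 0.774 times 5m AS in the early treated and 0.386 times in the late treated library (0.378 to 0.394).

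Matrix, complement and macrophage genes were higher with it. In 5m AS against WT, 13 of 16 matrix genes, 9 of 11 complement and acute phase genes, 8 of 8 macrophage genes and 6 of 8 fibroblast genes were higher in TAL spots, and none lower, with median log2 ratios of 1.57, 2.10, 2.52 and 2.33. The other spots gave 2.23, 2.08, 2.68 and 2.34. Marker RNA of macrophages (12 genes, none at 0) in TAL spots summed to 162.5 (WT), 243 (2m AS), 1124 (5m AS), 659 (early treated), 479.5 (late treated) and 349 (mixed) scaled CPM. That of fibroblasts (10 genes) summed to 389, 585, 1075, 779.8, 562 and 355. The part of these cells in the results for injury, matrix and complement genes was not tested.

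Several of these genes stood lower in TAL spots than in the other spots of the section. C3, the central complement component, had 13.4 (WT), 16.4 (2m AS), 209 (5m AS), 139 (early treated), 50.7 (late treated) and 20.3 (mixed) scaled CPM in TAL spots, a 15.6-fold difference between 5m AS and WT (12.2 to 20.2). In the other spots of 5m AS it reached 403, and the difference there was 33.9-fold. Timp1, an inhibitor of matrix metalloproteinases, had 42.6 in TAL spots of 5m AS against 88.1 in the other spots. Complement genes had a median log2 contrast between TAL and other spots of -0.05 (WT), -0.37 (2m AS), -0.70 (5m AS), -0.59 (early treated), -0.77 (late treated) and -0.17 (mixed). Lyz2, a macrophage lysozyme, had 22.7, 53.3, 464, 267, 167 and 73.1 in TAL spots, at 0.869 times the other spots in 5m AS.

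The treated libraries differed from each other on these lists. Against 5m AS, 2 of 8 macrophage genes, 1 of 16 matrix genes and 0 of 11 complement genes were lower in the early treated library, and 6 of 8, 6 of 16 and 3 of 11 in the late treated one. Median log2 ratios were -0.77, -0.45 and -0.14 (early) and -1.01, -0.77 and -0.76 (late). The difference between the treatments was not tested.

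**Figure D3:**
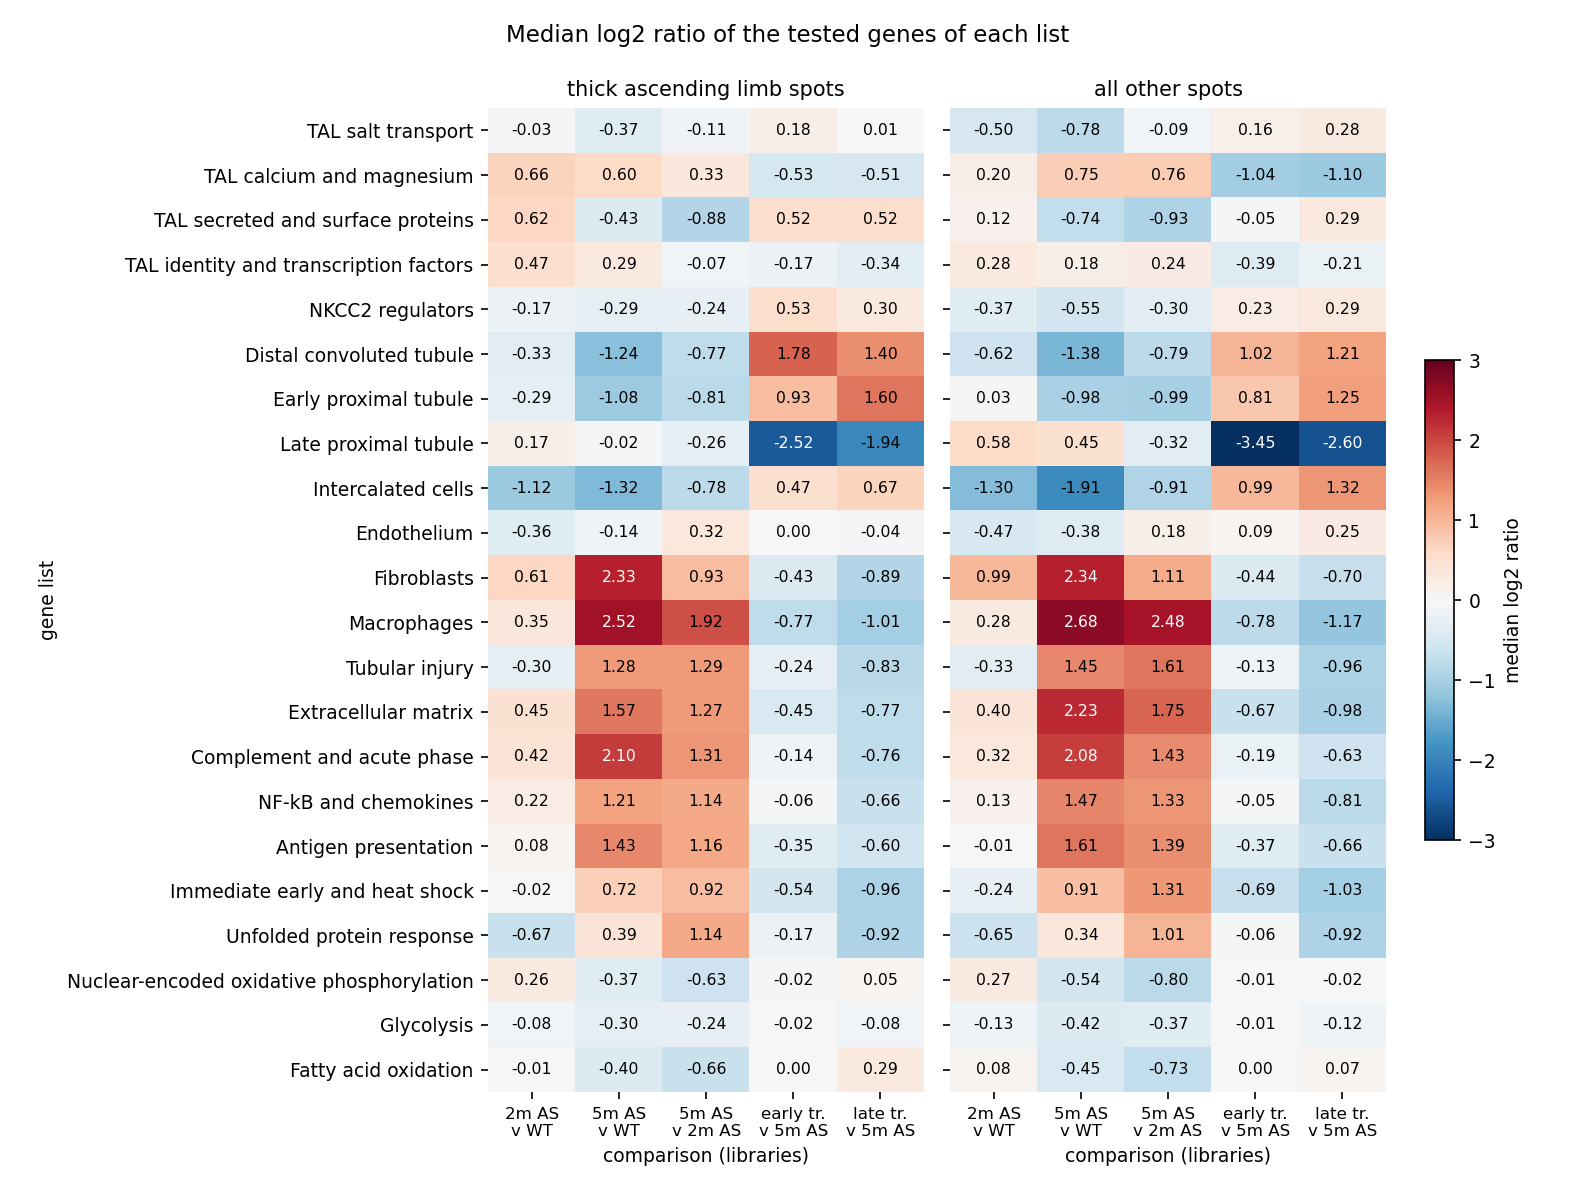
Median log2 ratio of 22 gene lists (rows) in the 5 comparisons, with TAL spots and the other spots of the same libraries side by side, on a colour scale from -3 to 3. Macrophage (2.52), fibroblast (2.33) and complement (2.10) genes have the highest medians of TAL spots in 5m AS against WT, and late proximal tubule genes the lowest in the early treated library (-2.52).

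Of the 281 genes higher in TAL spots of 5m AS than of WT, 240 (85.4%) were also at least 2-fold higher in the other spots of the same 2 sections, and of the 298 lower genes 214 (71.8%). Some genes did otherwise. Klk1, tissue kallikrein of the connecting tubule, had 3646 (WT), 2841 (2m AS), 1938 (5m AS), 3047 (early treated), 2072 (late treated) and 4223 (mixed) in TAL spots and 8080.0, 5581, 1599, 5015, 4129.8 and 12344 in the others. It was thus at 0.532 times WT in TAL spots of 5m AS but 0.198 times elsewhere.

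Col5a2, a chain of type V collagen, had 34.6 (WT), 46.3 (2m AS), 24.2 (5m AS), 62.3 (early treated), 27.8 (late treated) and 78.6 (mixed) scaled CPM in TAL spots. It was 1.69-fold to 3.23-fold higher in TAL spots than elsewhere in 5 libraries and 0.786-fold in 5m AS. Its ratio of 5m AS to WT was 0.699 in TAL spots (0.549 to 0.888) and 2.22 in the other spots, and its early treated ratio was 2.58 in TAL spots (2.08 to 3.22) and 0.787 in the others. Cck, the peptide hormone cholecystokinin, was 4.59-fold above WT in TAL spots (3.04 to 7.13) and 24.4-fold in the others. Without the spots that also scored as late proximal tubule, its log2 ratio in TAL spots was 3.52 in place of 2.20.

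**Figure D4:**
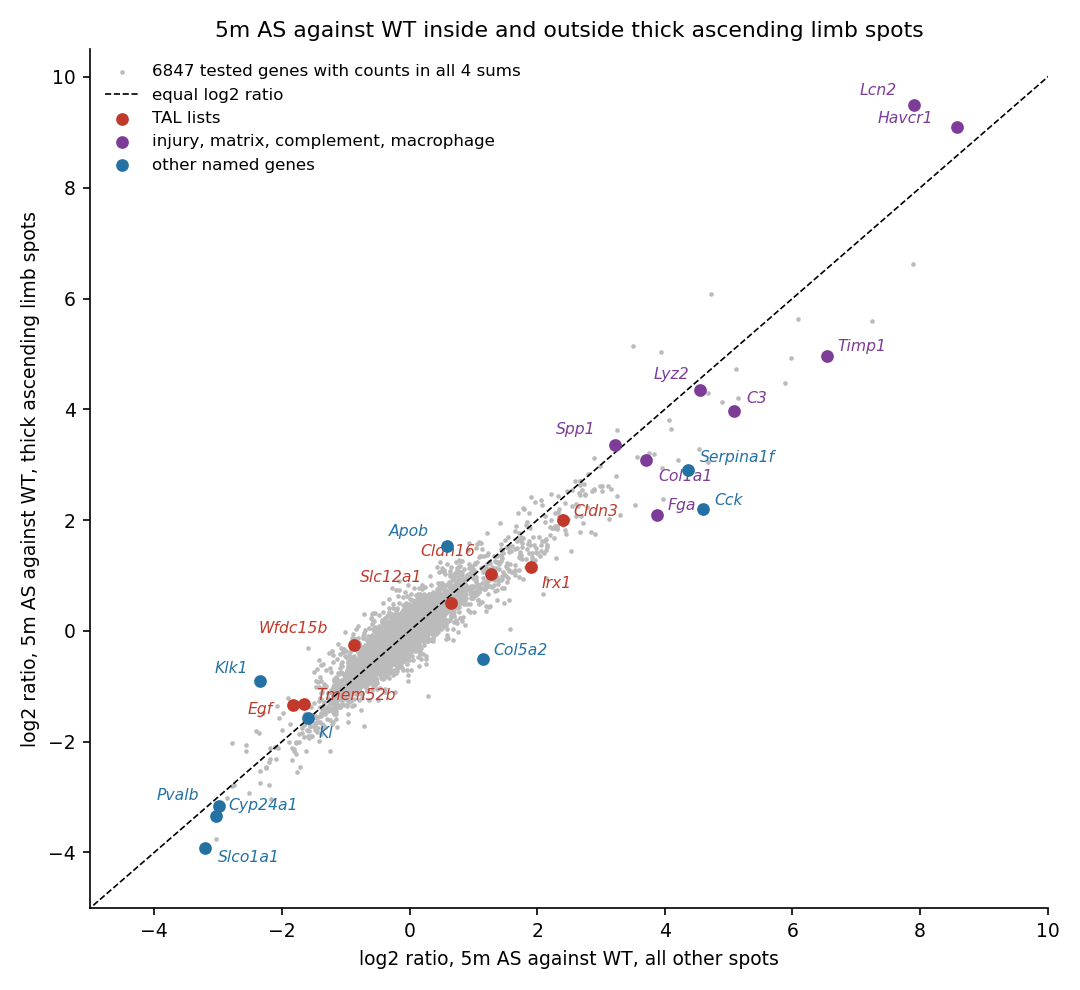
Log2 ratio of 5m AS to WT in TAL spots (vertical axis) against the same ratio in the other spots (horizontal axis) for 6847 tested genes with counts in all 4 sums; the dashed line marks equal ratios. Col5a2 and C3 lie below the line and Klk1 above it.

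Chaperones of the unfolded protein response help proteins fold in the endoplasmic reticulum. Of 16 unfolded protein response genes, 10 had higher levels in 5m AS than at 2 months and none lower ones (median log2 ratio 1.14), 3 were higher than in WT (median 0.39), and 2 of 14 were lower in 2m AS than in WT (Hspa5 and Calr). With 1 score threshold for all libraries the log2 ratio of Hspa5 in the latter comparison was -0.97 in place of -1.07. In the late treated library 7 of 16 were lower than in 5m AS (median -0.92) and in the early treated library none was called (median -0.17). Hspa5, the endoplasmic reticulum chaperone BiP, had 428 (WT), 204 (2m AS), 816 (5m AS), 595 (early treated), 253 (late treated) and 332 (mixed) scaled CPM, with 5m AS 3.995-fold above 2m AS (3.75 to 4.26) and the late treated library at 0.310 times (0.291 to 0.329). The other spots gave 3.79-fold and 0.322 times.

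Hspa1b, an inducible heat shock protein whose counts cannot be told apart from those of its near copy Hspa1a, had 108, 23.7, 276, 41.9, 15.8 and 39.2 scaled CPM in the order of the libraries above. The 5m AS level was 11.7-fold above 2m AS (9.82 to 14.0), and the late treated library at 0.0572 times it (0.0457 to 0.0708). Of 14 immediate early and heat shock genes, 5 were lower in the early treated and 7 in the late treated library than in 5m AS. Sdf2l1, a cofactor of BiP, had 34.9 in 5m AS and 5.73 in the late treated library (0.164 times; 0.109 to 0.239), against 0.326 times in the other spots.

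**Figure D5:**
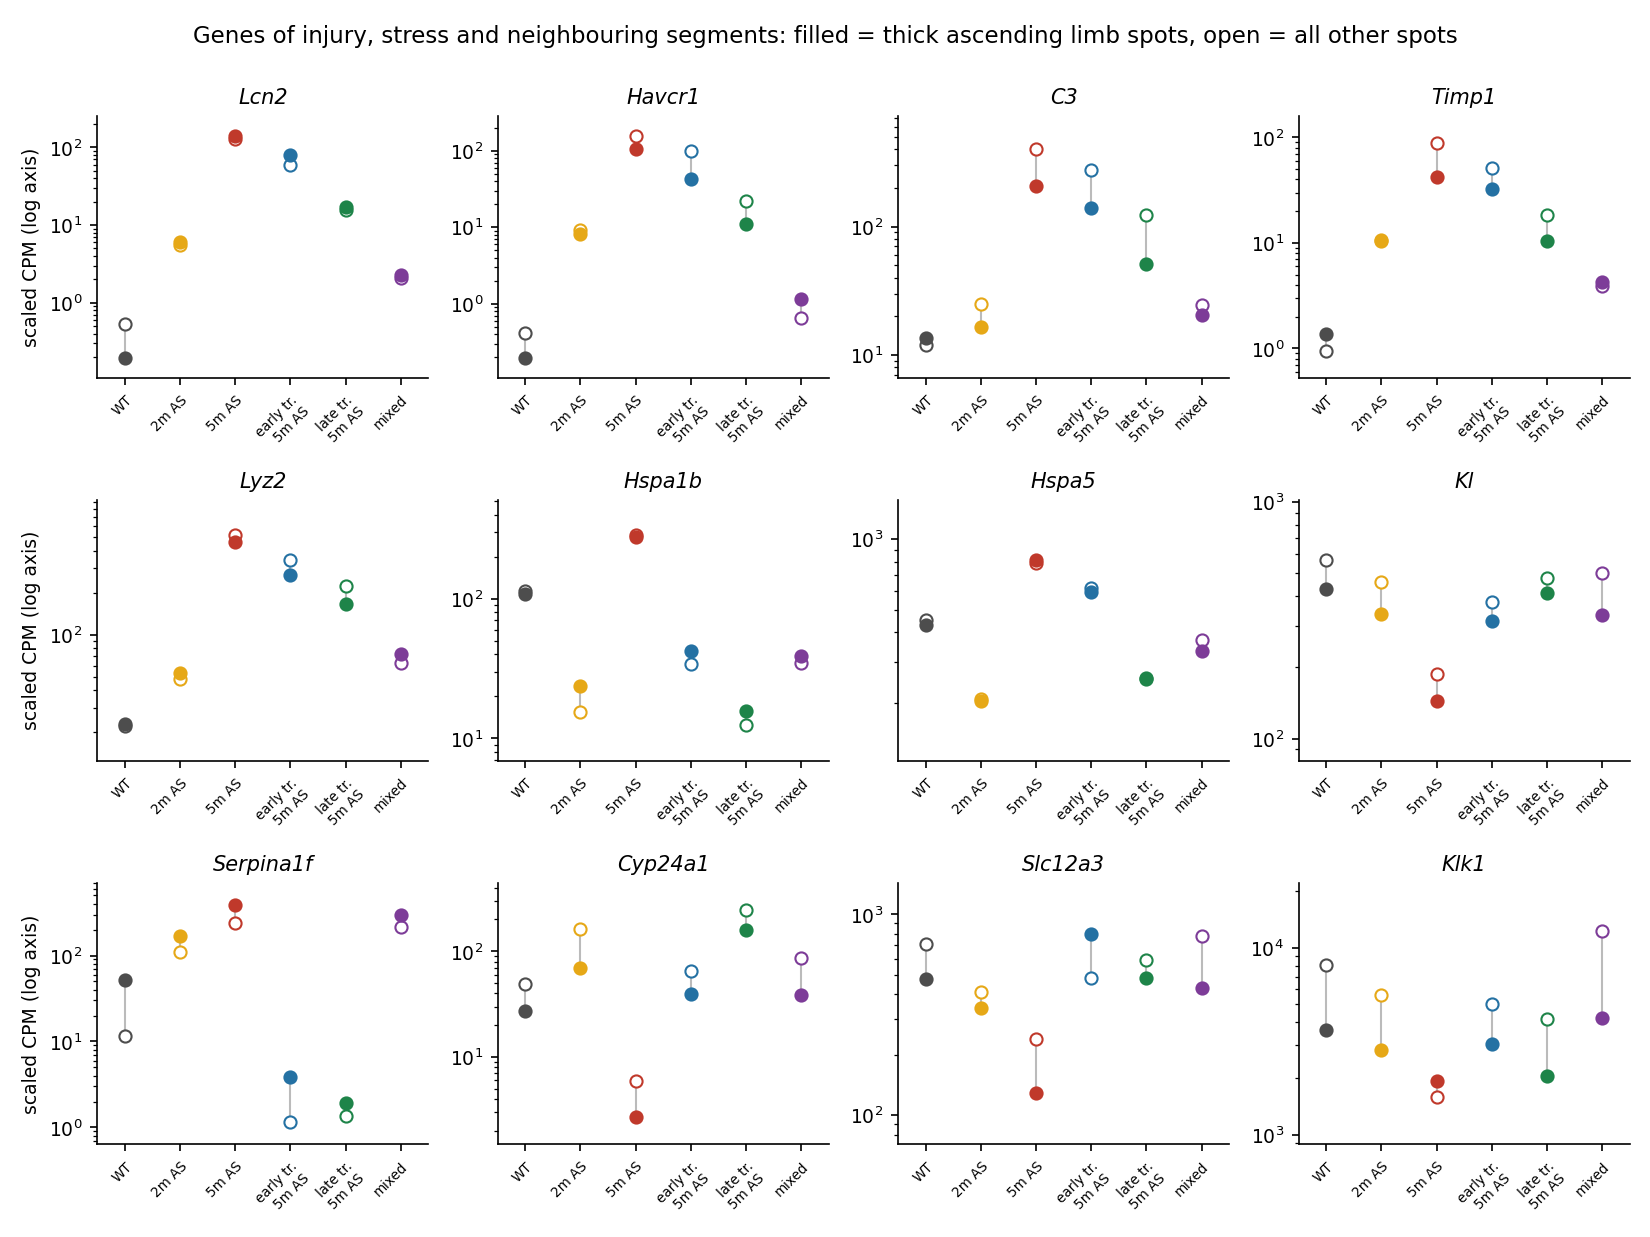
Scaled CPM (log axis) of 12 further genes in TAL spots (filled) and other spots (open) of each library, 1 panel per gene. Lcn2, Havcr1, C3, Timp1 and Lyz2 are highest in 5m AS, Kl and Cyp24a1 are lowest there, and Serpina1f is low in both treated libraries (3.83 and 1.91).

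Genes of neighbouring segments also differed in TAL spots. Of 8 DCT genes tested, 5 were lower in 5m AS than in WT (Slc12a3, Pvalb, Klhl3, Emx1 and Calb1; median log2 ratio -1.24). Without TMM factors the log2 ratio of Emx1 was -0.78 in place of -1.12. In the early treated library 6 of 9 and in the late treated library 6 of 8 were higher than in 5m AS (medians 1.78 and 1.40). DCT marker RNA (9 genes) summed to 1089 (WT), 819 (2m AS), 439 (5m AS), 1607 (early treated), 1177 (late treated) and 1004 (mixed) scaled CPM in TAL spots.

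Slc12a3, the thiazide-sensitive cotransporter of the DCT, had 477, 342, 129, 798, 483 and 432 in TAL spots and 715, 410.4, 238, 483, 593 and 778 in the others. It was at 0.270 times WT in 5m AS (0.247 to 0.295), and 6.19-fold (5.68 to 6.74) and 3.75-fold (3.43 to 4.09) above 5m AS in the treated libraries. The early treated library was the only 1 of the 6 in which the summed level of Slc12a3 was higher in TAL spots than elsewhere (1.68-fold, against 0.528-fold to 0.872-fold). The shares of spots did not differ in that way. After thinning to 5000 UMIs, 61.6% of its TAL spots and 62.5% of its other spots held an Slc12a3 UMI. Without the spots that also scored as DCT the log2 ratio of Slc12a3 was 1.67 in place of 2.63 for the early treated library and -2.54 in place of -1.89 for 5m AS against WT, and the early treated median of the list was 0.97 in place of 1.78. At the 97th percentile its log2 ratio was -2.93 for 5m AS against WT and 2.83 for the late treated library (1.91 at the 92nd).

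Proximal tubule genes were counted by segment. Of 11 early proximal genes tested, 6 were lower in TAL spots of 5m AS than of WT (median -1.08), and 5 were higher in the early treated and 8 in the late treated library than in 5m AS (medians 0.93 and 1.60). Slc5a2, the glucose cotransporter SGLT2, had 252 (WT), 160 (2m AS), 58.1 (5m AS), 213 (early treated), 236 (late treated) and 198 (mixed) scaled CPM. Of 11 late proximal genes, 8 were lower in the early treated and 6 in the late treated library than in 5m AS (medians -2.52 and -1.94), and 1 was higher in each (Slco1a6). In 5m AS against WT, 3 of the 11 were higher (Cyp7b1, Serpina1f and Cyp4a14) and 2 lower (Slc7a13 and Slco1a6; median -0.02), of which Slc7a13 was not called without TMM factors (log2 ratio -0.88 in place of -1.22). Serpina1f had 52.4, 171, 391, 3.83, 1.91 and 300.1 in TAL spots, and its reads may be shared with close paralogs.

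Cyp24a1, the vitamin D 24-hydroxylase, had 27.4 (WT), 70.1 (2m AS), 2.69 (5m AS), 39.1 (early treated), 160.3 (late treated) and 38.2 (mixed) scaled CPM in TAL spots. Its 5m AS level was at 0.0981 times WT (0.051 to 0.173), and the late treated library was 59.7-fold above 5m AS (34.7 to 113). With the score taken after thinning to 1000 UMIs, these log2 ratios were -4.05 in place of -3.35 and 6.54 in place of 5.90. In every library it was lower in TAL spots than elsewhere, between 0.443-fold and 0.612-fold. Intercalated cell genes were lower in both AS libraries than in WT (6 of 10 in each, medians -1.12 and -1.32), among them Slc26a4, the chloride and bicarbonate exchanger pendrin, at 0.421 and 0.123 times WT (the former a log2 ratio of -1.25, or -0.97 with spots weighted equally). The sparse macula densa markers (4 genes) summed to between 5.11 and 10.1 scaled CPM, and none reached the level for a comparison.

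Of 24 nuclear genes of oxidative phosphorylation none was called in any comparison, with medians between -0.63 (5m AS against 2m AS) and 0.26 (2m AS against WT). The size of the former depends on the scaling. The 24 genes summed to 31065 (2m AS) and 20002 (5m AS) scaled CPM, but to 25961 and 22106.5 CPM without TMM factors. In the tonicity response list, whose members include the inositol transporter Slc5a3, 0 of 6 genes were called in 4 of the comparisons, and 1 was lower in the late treated library than in 5m AS (Sgk1).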

How the data were processed

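The deposited matrices held counts of UMIs per gene (32285 genes) and spot, which the authors made with Space Ranger 1.2.1 (WT and 5m AS) or 1.3.1 (the other 4 libraries), per the file headers, on the mm10 build, per the submitters' processing notes; the filters on spots and the handling of strand are not given in the sources used here. Library totals ran from 48940875 to 91976637 UMIs.

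Spots with at least 1000 UMIs were scored by the mean over Slc12a1, Umod and Egf of the natural log of 1 plus UMIs per 10000, and spots at or above the 92nd percentile of their library became members. Their UMIs were summed per library and scaled by TMM factors (edgeR 4.0.16, R 4.3.3) over the 6 sums; the sums of the other spots were scaled in the same way. With 1 library per group no test was run: a gene counted as higher or lower at 2-fold or more if either library reached 20 scaled CPM. Ratios carry exact (Clopper-Pearson) 95% intervals for Poisson counts and shares exact binomial intervals, both covering counting error only. Contrasts between member and other spots of a library use unscaled CPM. Spots were thinned to 5000 UMIs for shares of spots with a UMI. The computation was tested on simulated data. Other software was Python 3.11.15 with numpy 2.4.6, scipy 1.17.1, pandas 2.3.3 and matplotlib 3.10.9, and DESeq2 1.42.0 for median-of-ratios factors.

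The members and the 37 gene lists were chosen with earlier results of these data known. Genes named were the members of the 4 TAL lists, Col4a5, up to 4 members of each other list with the largest ratios, the 10 largest ratios in each direction with 1.5-fold or more under plain CPM and equal spot weights, the 15 genes with the largest mean contrast to other spots, and the 5 per direction whose ratio differed most between members and other spots; not all of them are printed, and some genes are not reported here. The ranked names skip predicted, ribosomal, mitochondrial, haemoglobin and immunoglobulin genes and genes linked to sex. The 38 symbols that occur more than once were kept apart by identifier. Paralogs that share reads (Hspa1a and Hspa1b, the Serpina1 genes) and the overlapping pair Slc5a3 and Mrps6 are uncertain. Spot positions were not used, and no doublet caller was run on spots.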

Additional observations from a re-analysis of the deposited data

Results flagged for a closer look

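The mixed library of a WT and a heterozygous female enters no comparison, and 14 genes in its TAL spots stood at least 4-fold above each of the other 5 libraries. They included enzymes and transporters of the proximal tubule and liver: Hao2, a hydroxyacid oxidase (1180.1 scaled CPM, against 103 to 280 in the other 5), Gsta2 (1104.5) and Gsta4 (342), both glutathione S-transferases, Cbr1, a carbonyl reductase (590.5), Rdh16f2 (539.7), Acot3 (75.1), Slc7a12 (55.7), Slc22a29 (40.7), Kynu, kynureninase (30.5), Abcc3 (28.7), Bhmt (23.2) and Fabp1 (20.6). Hdc, histidine decarboxylase, had 31.6 scaled CPM there and at most 1.24 elsewhere. Within the mixed library these 13 genes stood at 0.792-fold to 1.499-fold of the other spots in TAL spots, so they were not restricted to them.

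Cldn14 was the exception, at 27.7 scaled CPM in TAL spots of the mixed library and 4.33 in its other spots. After thinning to 5000 UMIs, 8.13% of the TAL spots of that library (20 of 246; exact interval 5.04% to 12.3%) held a Cldn14 UMI, as against 1.32% of its other spots; without thinning the shares were 23.8% and 6.09%. Sex, genotype and library cannot be told apart in these values.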

How the results depend on the processing

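Of 22814 gene log2 ratios recomputed under the alternatives, 19037 stayed within the 95% counting interval of the reported ratio, 3776 moved and 1 turned: Jchain in the early treated library against 5m AS went from 2.00 to -0.18 when the score was taken after thinning to 1000 UMIs. A change of sign was counted as a turn only where the reported ratio was at least 2-fold. Smaller ratios that changed sign are among those that moved or stayed. Of 2192 list medians 7 moved, and of 108 thinned shares 67 moved. The rule for list medians did not register shifts of the size that the scaling made. Without TMM factors 0 of 169 list medians were counted as moved. Yet the EGF family median of 5m AS against WT went from -0.19 to 0.15 without these factors. The count of 7 therefore does not show how far list medians depend on the scaling. Counts of genes moved by more than 1.5 times as follows, given as higher and lower. At the 97th percentile of the score, 2m AS against WT had 147 and 145, and the early treated library 202 lower. Without TMM factors, 5m AS had 506 and 125 against WT and 794 and 92 against 2m AS. With 1 score threshold for all libraries, 5m AS had 195 lower than WT. With a minimum of 5 scaled CPM the counts were 242 and 217 (2m AS against WT), 737 and 470 (5m AS against WT), 788 and 610 (5m AS against 2m AS), 268 and 289 (early treated) and 390 and 506 (late treated), and with more than 3 counts as the only filter 1012 and 629, 1731 and 1010, 1665 and 1343, 797 and 938, and 963 and 1215, because more genes entered. The cause of the other moves was not tested. No paired analysis was possible because each group has 1 library. A level under 3 UMIs (0.494 to 0.620 scaled CPM) could not be told from 0 at this depth.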

Other observations

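Glomerular genes were part of the early treated TAL spots. Of 7 podocyte genes tested against 5m AS, 5 were higher (among them Nphs1 and Podxl; median log2 ratio 1.43, and 0.59 in the other spots), and the summed level of 10 podocyte markers was 289 (WT), 155 (2m AS), 208 (5m AS), 507 (early treated), 334 (late treated) and 229 (mixed) scaled CPM. Nphs1, the slit diaphragm protein nephrin, had 26.2 scaled CPM there and 5.37 in 5m AS (4.88-fold; 3.18 to 7.75), a log2 ratio of 2.29 that ran from 1.52 (spots weighted equally) to 2.97 (score from Slc12a1 alone).

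Slpi, a secreted protease inhibitor, was highest in 1 library in TAL spots, at 34.3 scaled CPM in the early treated library and at most 3.79 in the other 5. Ren1, renin, had 208 (WT), 55.7 (2m AS), 30.4 (5m AS), 104 (early treated), 112 (late treated) and 318 (mixed) scaled CPM in TAL spots, and was 3.42-fold (2.84 to 4.14) and 3.70-fold (3.09 to 4.46) above 5m AS in the treated libraries.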
